A study of Mus musculus with 3 samples.

Results

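Slc7a11, which encodes the transporter subunit that brings cystine into the cell, was followed here with 8 genes of the same nutrient response, Slc3a2, Atf4, Asns, Psat1, Phgdh, Trib3, Ddit3 and Chac1, through the first days of reprogramming of mouse fibroblasts. The 9 genes were taken by symbol from a table of 50507 genes, over every day of the time course, both transfected controls and all siRNAs. The genes were chosen as members of 1 pathway with earlier results known, and the pathway was selected on the counts of Day06 against Day00. Slc7a11 had drawn attention because it had no count on Day00 and was present on Day06, so the members' difference between these days is given as a description without a test.

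The cells were primary mouse embryonic fibroblasts of strain BL6, wild type, reprogrammed at passage 2. All of them, controls included, had been transduced with a tet-STEMCCA lentivirus carrying Oct4, Sox2, Klf4 and c-Myc and with an rtTA lentivirus. Reprogramming was started with medium that held 2 ug/mL doxycycline, 3 uM chiron, 0.25 uM Alk5i, 50 ug/mL ascorbic acid and LIF, and the study's methods count its addition as day 0, so Day00 stands for transduced cells at the start of induction. Cells were infected as a culture, so a library mixes cells with different insertions. The time course (Day00 to Day06, 3 libraries a day) was replated without transfection. The control nt received a non-targeting siRNA (3 libraries), Mock is a transfection control that the sources do not describe further (5 libraries, of which replicates 1 and 2 gave a pair each and replicate 3 gave 1), and 33 conditions received pooled siRNAs at 40 nM, named by their target (98 libraries). Transfected cells were collected on day 6. The 3 deposited samples are 3 sequenced pools, called replicates 1 to 3 here, and the condition of a library is known from its column name. The study describes the transfections as done in triplicate and the sequencing replicates as independent, while the labels name the pools alone, and p-values measure the spread between these libraries. The fit took the Mock libraries of a pair as separate, so their errors may be too small.

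SLC7A11 and SLC3A2 form the cystine-glutamate exchanger of the plasma membrane. SLC7A11 carries the cystine and SLC3A2 is the heavy chain that brings it, and several other amino acid transporters, to the cell surface. Cystine is reduced to cysteine, which limits the synthesis of glutathione. ATF4 is a transcription factor whose mRNA is translated preferentially when eIF2alpha is phosphorylated under amino acid shortage or endoplasmic reticulum stress, so Atf4 mRNA is not a measure of ATF4 protein. Its known targets include Slc7a11, the amino acid enzymes Asns, Psat1 and Phgdh, and the stress genes Trib3, Ddit3 and Chac1.

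Depth was modest. The 127 libraries used held 29656 to 235292 UMI counts (median 73279), with medians of 64227, 63122 and 127079 in replicates 1, 2 and 3. Of the 9 genes, 5 passed the filter on low counts (Slc7a11, Slc3a2, Atf4, Asns, Psat1). Phgdh, Trib3, Ddit3 and Chac1 did not and were fitted separately. The shares of all genes given below cover genes above the filter, so they are a like measure only for the 5. In these libraries Slc7a11 had 1418 counts, Slc3a2 1918, Atf4 1412, Asns 623, Psat1 3377, Phgdh 254, Chac1 72, Ddit3 59 and Trib3 20. Values are given as CPM, counts scaled to a common library total. Fibroblast markers (Col1a1, Col1a2, Col3a1, Thy1, Pdgfra, Vim, Dcn) had counts for 7 of 7 genes on each day checked, and their summed level was 5050 to 6800 CPM on Day00, 2970 to 3420 on Day03, 2420 to 3280 on Day06 and 1600 to 1950 in nt. The 7 early reprogramming and epithelial markers summed to 8.28 to 21.2 CPM on Day00 and to 89.0 to 253 on Day06, with Nanog and Fut4 at 0 on both days. In bulk RNA a change in the cells present and a change of RNA per cell cannot be told apart. The endothelial markers Pecam1, Cdh5 and Kdr were at 0 on Day00, Day03 and Day06, and only Kdr had a count in nt. The 3 macrophage markers summed to 124 to 205 CPM on Day00 (Ptprc at 0), 54.2 to 105 on Day03 and 18.1 to 89.0 on Day06 (Cd68 at 0 on both), and 16.3 to 29.9 in nt (Ptprc and Cd68 at 0), and their part in the results was not tested. Of the 33 siRNA targets, 9 were counted well enough to pass the filter. Of these, 7 had a log2 fold change below 0 against nt and 0 passed the test (edgeR), so knockdown cannot be read from these counts. The others were Hdac1 in siHdac1, at 0.62 (SE 0.51, adjusted p = 0.699 in edgeR), and Bptf in siBptf, at 0.03 (SE 0.62, adjusted p = 0.996 in edgeR). Under the filter, Ep300 had 17 counts in the 3 libraries labelled siEp300 and 3 in nt, against the label, and was not tested.

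The promoters of several of these genes hold letters of the C/EBP-ATF element, the site type through which ATF4 dimers are known to act. In RefSeq windows of 300 bases (GRCm38.p6, 250 bases before to 50 after the start), TGATGNAA was searched on both strands, where N is any base. It was present in 3.97% of 32851 windows and in 4 of the 9 genes: Slc7a11, Asns, Chac1 and Trib3. Slc7a11 held 2 copies that begin 66 and 47 bases before the start and face each other. The stretches are shown because the cystine transporter gene was the one whose counts changed from none, and the capitals mark the element, which appears as its reverse complement where it lies on the other strand.
Slc7a11, chr3:50443629-50443733, minus strand: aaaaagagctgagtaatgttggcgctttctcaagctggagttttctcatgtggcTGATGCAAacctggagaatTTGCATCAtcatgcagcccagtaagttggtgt
Asns, chr6:7693213-7693242, minus strand: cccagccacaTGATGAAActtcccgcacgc
Chac1, chr2:119350992-119351071, plus strand: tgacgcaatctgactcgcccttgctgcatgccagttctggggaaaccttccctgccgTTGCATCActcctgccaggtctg
The Asns element begins 23 bases before the RefSeq start and the Chac1 element 193 bases before it. The Trib3 match lies after the start, at base 15. Psat1 lacked these letters but shared a run with Trib3, TGGTGCAATCCC, that was picked after the windows had been read. It is the longest run both windows hold on the gene's own strand, and it stood in 4 of the 32851 windows, Psat1 and Trib3 included, and is marked by the capitals in both.
Psat1, chr19:15925130-15925239, minus strand: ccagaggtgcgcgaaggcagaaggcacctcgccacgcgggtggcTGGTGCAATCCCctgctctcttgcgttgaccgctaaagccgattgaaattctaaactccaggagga
Trib3, chr2:152344061-152344120, minus strand: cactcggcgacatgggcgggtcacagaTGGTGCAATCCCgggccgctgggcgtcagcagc
The core of the antioxidant response element, through which NRF2 is known to act, was searched as TGACNNNGC. It was in 12.4% of windows and in those of Phgdh and Asns, and not in the 300 bases of Slc7a11. A match is a description of the letters and no evidence of binding.

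Slc7a11 (chr3:49892526-50443614 in GRCm38, minus strand, 18 annotated exons) was absent from the counts of Day00 and present in every library after it. On Day00 all 3 libraries had 0 counts. On Day01 the 3 libraries had 5, 12 and 8 counts, or 115, 147 and 91.1 CPM. The mean was 117 CPM on Day01 (SD 27.9), 135 on Day02 (SD 11.8), 220 on Day03 (SD 138), 79.6 on Day04 (SD 22.8), 180 on Day05 (SD 58.3) and 160 on Day06 (SD 40.2), with n = 3 throughout. The day of first detection was therefore the first day sampled after the start, and the means of the later days lay between 79.6 and 220 CPM. The high mean of Day03 came from replicate 2, at 379 CPM, while the other libraries of that day had 140 and 141 CPM. A count of 3 over the Day00 libraries corresponds to 13.8 CPM. Against this limit the pooled level of Slc7a11 was at least 8.47-fold higher on Day01, at least 5.99-fold higher on Day04 and at least 12.6-fold higher on Day06. These folds are a description, since the Day00 zeros drew attention to the gene, and they allow for counting error on Day00 but not for that of the 25, 27 and 47 counts of the later days.

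**Figure D1:**
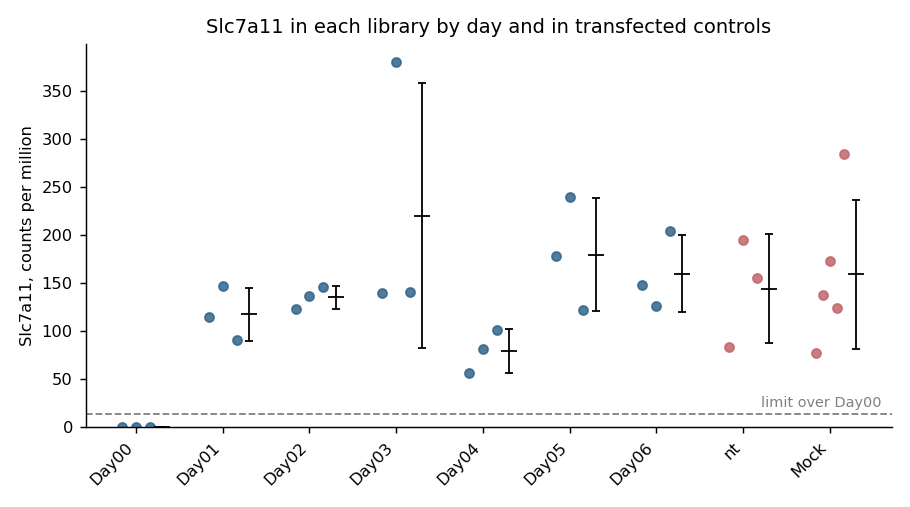
Slc7a11 in CPM (vertical axis) in each library of the 7 days and the 2 transfected controls (horizontal axis). Points are libraries, black marks the mean with 1 SD, and the dashed line the 13.8 CPM that 3 counts over Day00 would give. The 3 Day00 libraries lie at 0 and all other libraries shown lie between 56.1 and 379 CPM.

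No difference of Slc7a11 between later days passed the test. Day03 against Day01 gave a log2 fold change of 0.80 (SE 0.41, adjusted p = 0.206 by edgeR's quasi-likelihood test). Day05 against Day01 gave 0.53 (95% interval -0.28 to 1.34, adjusted p = 0.398 in edgeR). The joint edgeR test among days 1 to 5 gave adjusted p = 0.0548. Without replicate 3 that value was 0.0267 and without replicate 2, which holds the 379 CPM library, it was 0.618 in edgeR. In order of the mean, Day00 was followed by Day04, Day01, Day02, nt, Mock, Day06, Day05 and Day03, and of the 8 pairs of neighbours 7 overlapped in their libraries, the exception being Day00 and Day04. The comparisons of transfected controls with Day06 are given without a p or a call for any gene, because the pathway was selected on the Day06 libraries. The nt libraries had 83.3, 194 and 155 CPM, and nt against Day06 gave -0.22 (95% interval -0.97 to 0.54). The 5 Mock libraries ranged from 77.4 to 284 CPM with a median of 137, and Mock against Day06 gave -0.01 (interval -0.73 to 0.72).

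Slc3a2 (chr19:8706882-8723369, minus strand), the heavy chain, was counted in every library, Day00 included. Day00 had 185, 169 and 207 CPM in its 3 libraries and Day06 had 415, 452 and 273 CPM, a log2 difference of 0.84 (SE 0.31) that is given without a test. The groups did not overlap. The level was highest on Day03, at 398 CPM (SD 110, n = 3), and lower on Day05, at 228 CPM (SD 111, n = 3). Slc3a2 fell from Day03 to Day05 by 0.86 on the log2 scale (SE 0.29, adjusted p = 0.0175 in edgeR), although 1 Day05 library, at 355 CPM, overlapped Day03. It was the only member of the 9 called there, against 23.6% of all 3013 genes tested (12.1% higher and 11.5% lower). The call was lost without replicate 2 (adjusted p = 0.14 in edgeR) and without replicate 3 (adjusted p = 0.181 in edgeR).

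In the transfected controls Slc3a2 was read against the untransfected cells of Day06, a description since the selection used the Day06 libraries, in which Slc3a2 was high. The nt libraries had 183, 194 and 114 CPM, all below the lowest Day06 library at 273 CPM. The log2 fold change of nt against Day06 was -1.21 (SE 0.31). Of the 9 members, 2 had a log2 fold change above 0 in this comparison and 7 below, with a median of -0.43 (-0.01 for all genes tested). In Mock the 5 libraries had 310, 309, 231, 99.3 and 149 CPM, so Mock overlapped Day06, and the log2 fold change was -0.89 (SE 0.30), and -0.53 without replicate 2. Both comparisons share the Day06 libraries, and the nt libraries overlapped those of Day00, at 169 to 207 CPM. Mock and nt were not told apart for Slc3a2, with a difference of 0.32 (95% interval -0.38 to 1.02, adjusted p = 0.818 in edgeR).

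Atf4 (chr15:80255184-80257541, plus strand), the transcription factor, overlapped between the ends of the time course. The 3 Day00 libraries had 82.1, 254 and 273 CPM and those of Day06 had 312, 181 and 143 CPM. The libraries of 1 day differed more than the means of most days did. The lowest mean was 119 CPM on Day05 (SD 31.9, n = 3) and the highest 230 CPM on Day01 (SD 92.2, n = 3). Day05 against Day03 gave -0.89 (SE 0.37, adjusted p = 0.0685 in edgeR) and Day05 against Day01 -0.91 (SE 0.38, adjusted p = 0.0766 in edgeR), neither of which passed. With RLE size factors the first was -1.07 (adjusted p = 0.0228 in edgeR), and with DESeq2 it was -1.08 (adjusted p = 0.0342). The second was -1.06 (adjusted p = 0.0346 in edgeR) and -1.07 (adjusted p = 0.0451 in DESeq2) in these settings. Such scaling lowered the median of all genes by 0.18 log2 for Day05 against Day03. The other shifts past 0.1 were -0.15 for Day05 against Day01, -0.16 for Day06 against Day00, -0.14 for nt against Day06, -0.11 for Mock against Day06 and 0.17 for siWdr5 against nt.

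Asns (chr6:7675169-7693254, minus strand), which makes asparagine, and Psat1 (chr19:15904678-15947337, minus strand), which acts in serine synthesis, are enzymes of amino acid synthesis that ATF4 is known to induce. Asns had 32.0 CPM on Day00 (SD 11.0, n = 3), 44.4 on Day03 (SD 9.62), 97.0 on Day05 (SD 22.5) and 93.5 on Day06 (SD 21.0). All 3 Day05 libraries, at 88.8, 79.6 and 122 CPM, lay above all 3 Day03 libraries, at 35.0, 54.2 and 44.0 CPM. With 32 counts against 10 the log2 fold change was 1.17 (SE 0.57) and did not pass (adjusted p = 0.121 in edgeR). Asns was also low in Mock, with 0 counts in 2 of 5 libraries. Its highest Mock value was 59.7 CPM, under the lowest Day06 library at 74.2 CPM. Mock against Day06 gave -1.48 (SE 0.63), and -1.58 with RLE size factors. The nt libraries, at 50.0, 120 and 65.4 CPM, overlapped Day06.

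Psat1 was lower on Day05 than on Day01. Day01 had 711, 562 and 695 CPM and Day05 had 343, 624 and 342 CPM. The highest Day05 library lay above the lowest of Day01, and the fall was 0.62 on the log2 scale (SE 0.23, adjusted p = 0.0469 in edgeR). Psat1 was the only one of the 9 members called there, against 17.4% of all genes (11.3% higher and 6.14% lower), and the call was lost without replicate 1 (adjusted p = 0.303) and without replicate 3 (adjusted p = 0.466), both in edgeR. Against Day06, whose libraries the selection used, Psat1 is again given without a p. The 5 Mock libraries ranged from 194 to 605 CPM with a median of 323, and Day06 had 653, 633 and 457 CPM. The log2 fold change was -0.87 (SE 0.25). Of the 9 members, 4 had a log2 fold change above 0 in Mock against Day06 and 5 below, with a median of -0.007 (-0.145 for all genes tested). The nt libraries, at 433, 419 and 384 CPM, also lay below every Day06 library, with a log2 fold change of -0.46 (SE 0.24). A pseudogene copy, Gm12611, holds a stretch 90.2% identical to the end of Psat1 and had 8 counts, so the split of reads between the pair is uncertain.

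**Figure D2:**
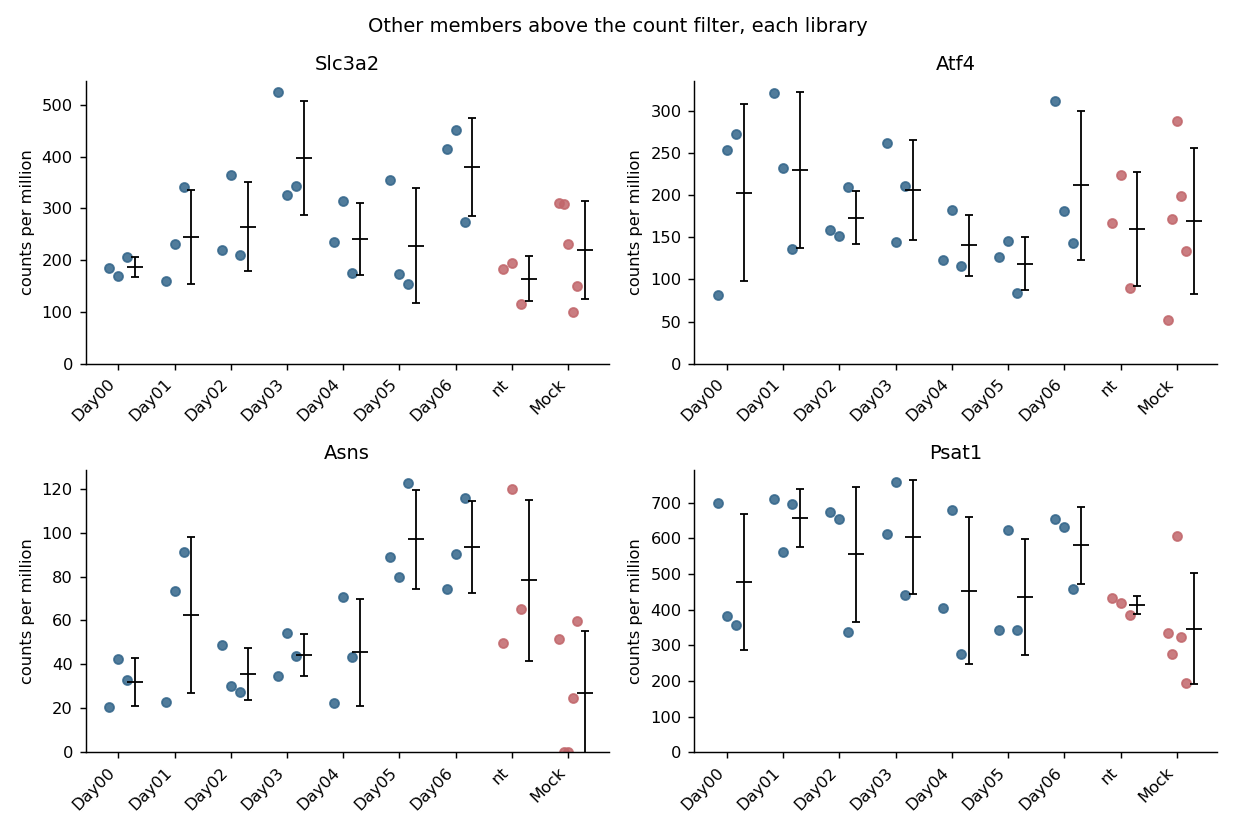
CPM of Slc3a2, Atf4, Asns and Psat1 (vertical axes, each from 0) in each library by day and in nt and Mock (horizontal axes). Points are libraries and black marks the mean with 1 SD, where the Asns bar in Mock is cut at 0. All 3 Slc3a2 libraries of nt lie below all 3 of Day06.

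Between Day01 and Day03, 0 of 9 members passed the edgeR test, 2 had an unadjusted p under 0.05, and 14.4% of all genes were called, 8.3% higher and 6.14% lower. Mock against nt likewise called 0 members, with 1 at an unadjusted p under 0.05, where 1.56% of all genes were called, 1.03% higher and 0.531% lower. DESeq2 also called 0 members in both. The joint test among days 1 to 5 called 0 of 9 members (30.7% of all genes), with adjusted p of 0.0731 for Slc3a2 and 0.079 for Psat1 in edgeR. In that test Slc7a11, Psat1 and Slc3a2 were the 3 members with an unadjusted p under 0.05.

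Phgdh, Chac1, Ddit3 and Trib3 were counted too rarely for a time course. Phgdh, the first enzyme of serine synthesis, had a count in 100 of 127 libraries and condition means of 17.7 to 58.4 CPM over the days, with 7 counts on Day00 and 9 on Day06. Many processed copies resemble its end, among which Gm9347 had 45 counts and Gm7901 had 22, so its counts are uncertain. Chac1, which degrades glutathione, had 5 counts in the 3 Day00 libraries, 1 on Day01, 5 on Day03 and 2 on Day06. It had 0 counts in the 3 nt libraries and 4 in the 5 Mock libraries. Ddit3, which encodes the stress factor CHOP, had a count in all 3 Day00 libraries (20.5 to 42.4 CPM) and in 1 or 2 of 3 libraries on every later day. The 6 counts of Day00 became 2, 3, 2, 1, 1 and 2 counts on Day01 to Day06. Its exons overlap Gm4189 and Mars on the opposite strand, and whether counting used the strand is not given in the sources used here. Trib3, a pseudokinase that dampens the ATF4 response, had 20 counts in all, in 20 of 127 libraries, and none on Day02, Day03 or Day04. No test of these 4 genes over the days or between the controls passed.

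**Figure D3:**
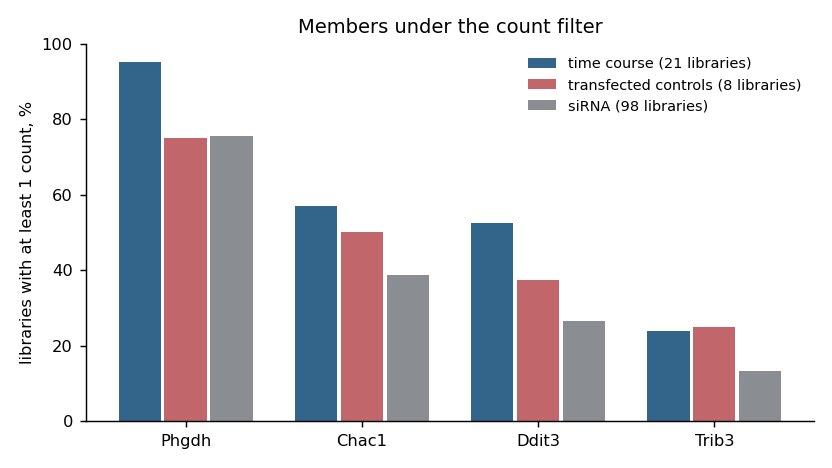
Percent of libraries with at least 1 count (vertical axis, 0 to 100) for the 4 members under the filter (horizontal axis), in the 21 time course, 8 control and 98 siRNA libraries. Phgdh had a count in 95.2% of time course libraries and 75.5% of siRNA libraries, and Trib3 in 23.8% and 13.3%.

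Across the siRNAs Slc7a11 was counted in every library. All 98 siRNA libraries had at least 1 count, from 20.6 to 413 CPM with a median of 156. The lowest means were 76.8 CPM in siBrd8 (SD 36.4), 91.6 in siPou5f1 (SD 67.7), 105 in siPrmt5 (SD 73.1), 114 in siBrca1 (SD 31.1) and 115 in siNcor1 (SD 93.7). The highest were 278 CPM in siJarid2 (SD 36.8), 251 in siPrkdc (SD 145), 246 in siSetdb1 (SD 98.6), 225 in the libraries labelled siEp300 (SD 79.3) and 214 in siBard1 (SD 102), and the other 23 siRNAs lay between 124 and 209. The libraries at the ends of the order did not overlap: siJarid2, which targets a partner of the Polycomb complex, had 296, 236 and 302 CPM, and siBrd8, which targets a bromodomain protein, had 113, 39.7 and 78.1 CPM. Neighbours mostly did. Of 41 pairs of neighbours among all 42 conditions, 40 overlapped. The siRNAs against Oct4, p53 and Wdr5 did not take Slc7a11 to 0: siPou5f1 had 22.5, 94.6 and 158 CPM, sip53 had 147, 143 and 139 CPM, and siWdr5 had 145, 114 and 114 CPM.

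**Figure D4:**
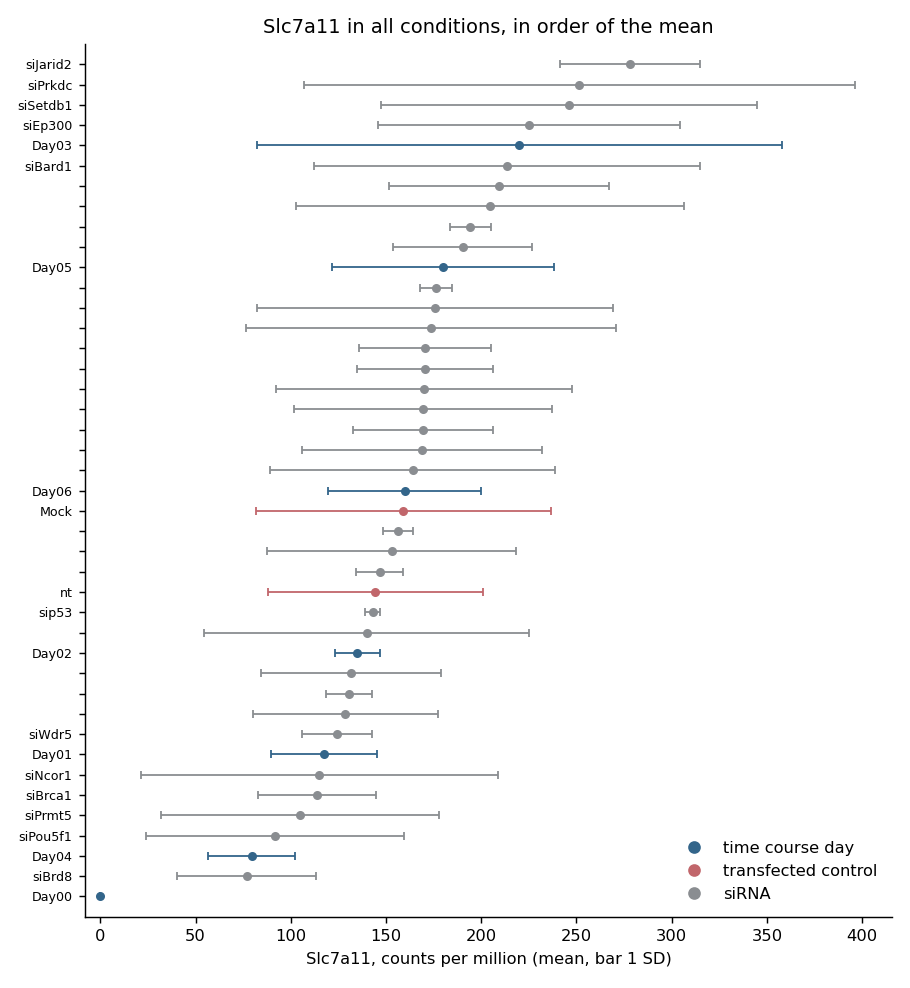
Mean Slc7a11 in CPM (horizontal axis, bars 1 SD) in all 42 conditions, ordered by the mean (vertical axis). Colours separate the days, the 2 transfected controls and the 33 siRNAs, of which the 5 lowest, the 5 highest, sip53 and siWdr5 are labelled. Day00 is at 0 and the other conditions run from 76.8 to 278.

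Against nt, 0 of the 297 pairs of a member and an siRNA passed the test in edgeR. The smallest adjusted p was 0.0938, 19 pairs had an unadjusted p under 0.05, and 2.57% of all pairs of a tested gene and an siRNA were called. That share covers genes above the filter, while the 297 pairs include the 4 members under it. DESeq2 also called 0 pairs, with 13 at an unadjusted p under 0.05. Slc7a11 in siJarid2 had a log2 fold change of 0.93 (SE 0.39, adjusted p = 0.275 in edgeR), and in siBrd8 of -0.91 (SE 0.47, adjusted p = 0.485 in edgeR). Slc3a2 was above nt in 31 of 33 siRNAs, with a median log2 fold change of 0.36, and Psat1 was below nt in 28 of 33, with a median of -0.31. Against nt and Mock together the tallies were smaller, with Slc3a2 above in 26 of 33 (median 0.20) and Psat1 below in 21 of 33 (median -0.11). The comparisons share their control libraries, so the counts of signs are not independent. The extreme siRNAs of each gene were siNcor1 at 143 CPM (SD 41.8) and siBptf at 292 CPM (SD 45.8) for Slc3a2, siWdr5 at 31.3 CPM (SD 15.8) and siTead2 at 128 CPM (SD 72.5) for Asns, and siNcor1 at 247 CPM (SD 154) and siPou5f1 at 536 CPM (SD 230) for Psat1. Phgdh was lowest in siPrmt7, with 0 counts in 3 libraries against 12 counts in nt (adjusted p = 0.106 in edgeR). Chac1 was highest in siKmt2e at 21.6 CPM (SD 13.4) and Trib3 in siBrd8 at 12.9 CPM (SD 11.2). Each was at 0 counts in several siRNAs, 9 for Chac1 and 21 for Trib3. Without replicate 2, which leaves 2 libraries on each side, 1 pair passed, Psat1 in siBard1 with -1.13 (adjusted p = 0.0285 in edgeR).

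**Figure D5:**
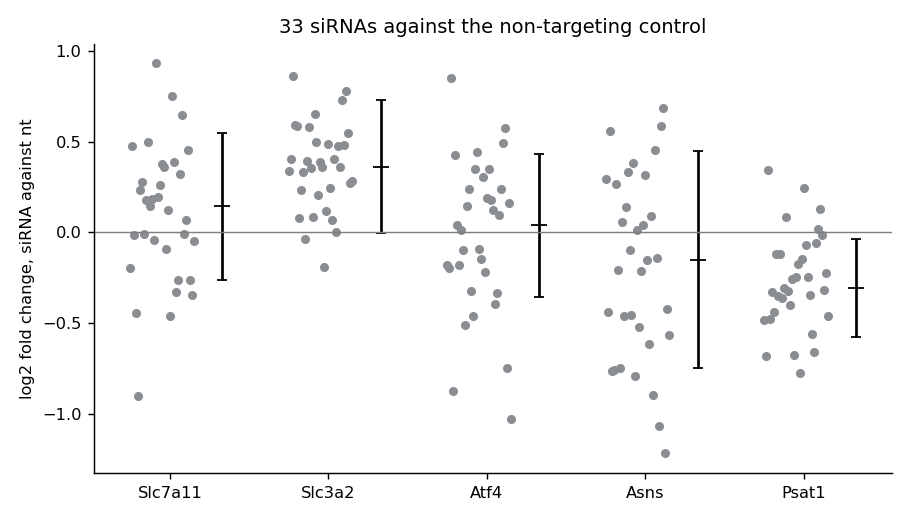
Log2 fold change of each of 33 siRNAs against nt (vertical axis) for the 5 members above the filter (horizontal axis). Points are siRNAs, and the black mark is their median with the median SE of 1 comparison. The Slc7a11 points run from -0.91 to 0.93 around a median of 0.15, with a median SE of 0.41, and 0 points passed the test.

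Atf4 was the 1 member of 9 to pass when all 35 transfected conditions were tested together, and the call hung on the setting. The joint edgeR test gave adjusted p = 0.0323, and 45.1% of all genes were called in it. Leaving out 1 replicate raised it to between 0.102 and 0.121 in edgeR. The lowest mean was in sip53, where the 3 libraries had 84.0, 28.5 and 83.6 CPM. The libraries labelled siEp300 (83.3 CPM, SD 53.7), siBrca1 (84.5 CPM, SD 23.0) and siWdr5 (85.8 CPM, SD 25.6) followed, and nt had 160 CPM (SD 67.5, n = 3). The highest mean was in siBptf, where the libraries had 344, 182 and 289 CPM. None of these passed against nt: sip53 gave -1.03 (SE 0.51, adjusted p = 0.345 in edgeR) and siBptf 0.85 (SE 0.39, adjusted p = 0.421 in edgeR). Slc7a11 gave adjusted p = 0.0942 in the joint edgeR test, and 0.0253 without replicate 1. Psat1 gave 0.0645, Asns 0.18 and Slc3a2 0.717 in edgeR.

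Other controls were also used. Against nt and Mock together 0 pairs passed in edgeR, with 24 at an unadjusted p under 0.05, while 3.38% of all pairs were called. Against the mean of the other siRNAs 2 of 297 pairs passed, both of Ddit3, where 4.28% of all pairs were called. They were siHat1, at 2.30 (SE 0.59, adjusted p = 0.0192 in edgeR), and siBard1, at 2.09 (SE 0.68, adjusted p = 0.0238 in edgeR). These rest on 1, 1 and 5 counts in the 3 siHat1 libraries and on 2, 1 and 1 counts in those of siBard1. Ddit3 had no count in 72 of 98 siRNA libraries. Slc7a11 in siJarid2 had 0.85 (SE 0.29, adjusted p = 0.183 in edgeR) and Atf4 in siBptf 0.90 (SE 0.30, adjusted p = 0.0865 in edgeR) against the other siRNAs.

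Over the 35 transfected conditions Pearson's r of mean log2 CPM was 0.105 between Slc7a11 and Slc3a2, -0.10 between Slc7a11 and Atf4, -0.02 between Slc7a11 and Asns and 0.07 between Slc7a11 and Psat1. Among Atf4, Asns and Psat1 it was higher, at 0.34 for Atf4 and Asns, 0.38 for Atf4 and Psat1, and 0.345 for Asns and Psat1, and it was 0.39 for Slc3a2 and Psat1. Slc3a2 had 0.09 with Atf4 and 0.18 with Asns. These are descriptions over conditions that share pools and depth. Over the 7 days, which include Day00 and Day06, r of Slc7a11 was 0.65 with Slc3a2, 0.56 with Asns, 0.37 with Psat1 and -0.05 with Atf4. It was 0.89 for Atf4 and Psat1, but -0.23 for Atf4 and Asns and 0.02 for Asns and Psat1. For Slc3a2 it was 0.58 with Psat1, 0.46 with Atf4 and 0.25 with Asns.

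Genes near the members were read in 9 lists of 75 genes, of which 29 passed the filter on low counts, as all genes behind the background shares did. They were chosen with results of these data known. Between Day00 and Day06, where 22.2% of all genes were called (10.7% higher and 11.5% lower), 8 of the 75 passed as higher and 5 as lower. The pathway was selected on this comparison, so these counts and the values that follow are a description, with no p or call for any gene. The genes named were picked for their change, and nothing is read from them. The glutathione list, which uses the cysteine that cystine supplies, had 5 of 7 genes with a log2 fold change above 0 and 2 below. Among the 5 was Gsr, which restores reduced glutathione, at 22.2 CPM on Day00 (SD 2.32) and 141 on Day06 (SD 55.1). So were Gclm, a subunit of the limiting enzyme of glutathione synthesis (277 to 523 CPM), and Gss, with 0 counts on Day00 and 10 on Day06. The transsulfuration and methionine list, the other source of cysteine, had 5 of 5 above 0. Among them were Mat2a (838 to 1264 CPM), Cth, with 0 counts and 14, and Mtr, with 1 count and 21, a ratio of 16.9 (95% counting interval 2.72 to 699). Slc1a4, a neutral amino acid transporter, had 2 counts and 23, a ratio of 9.25 (interval 2.29 to 81.0), and Shmt2, a mitochondrial one-carbon enzyme, went from 48.7 to 178 CPM. Gclm, Gclc, Gss, Cth, Mat2a and Shmt2 are named after their values were seen. Between the inner days, which the selection did not use, genes of the glutathione list were called in both directions. Gclc was higher on Day03 than on Day01 (log2 fold change 1.54) and lower on Day05 than on Day03 (-1.49). Gclm was lower on Day05 than on Day03 (-0.92) and than on Day01 (-1.07). Ggct was higher on Day05 than on Day01 (2.49).

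Of 7 XBP1 and ATF6 targets, 6 had a log2 fold change below 0 from Day00 to Day06 and 1 above. Among the 6 were 3 chaperones of the endoplasmic reticulum: Calr (824 to 375 CPM), Hspa5 (1124 to 504 CPM) and Hsp90b1 (1496 to 705 CPM). Nupr1, a stress gene downstream of ATF4, went from 142 CPM (SD 121) to 36.0 CPM (SD 8.62), and Mthfd2, a one-carbon enzyme, from 167 to 56.8 CPM.

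From Day01 to Day03, 9 of 75 were called higher and 2 lower, where 8.3% of all genes were called higher and 6.14% lower. Hsp90b1 went from 806 to 1448 CPM, Calr from 396 to 917, and Hmox1, the NRF2 target that breaks down heme, from 504 to 984, and these 3 are named here after their values were seen. By the naming rule the largest rises were Herpud1 (1 count and 14, ratio 13.2, interval 2.01 to 558), Cars (1 and 12, ratio 11.3, interval 1.67 to 484) and Nupr1 (46.5 to 141 CPM), and each call was lost without replicate 2 and without replicate 3, those on Cars and Nupr1 also without replicate 1, with adjusted p up to 0.689, 0.298 and 0.443 in edgeR. Eif4ebp1 (255 to 107 CPM) and Mat2a (1346 to 929 CPM) were lower, calls lost without replicate 3 and also without replicate 1 for Eif4ebp1 (adjusted p up to 0.289) and replicate 2 for Mat2a (up to 0.241), in edgeR. From Day03 to Day05, 3 of 75 were higher and 9 lower, where 12.1% of all genes were higher and 11.5% lower. Hmox1 fell by 2.59 on the log2 scale (SE 0.28, adjusted p = 8.46e-15 in edgeR), Ddit4 had 19 counts and 3 (ratio 8.66, interval 2.55 to 45.7) and Herpud1 14 and 1. The call on Hmox1 held without any 1 replicate, that on Ddit4 was lost without replicate 1 and without replicate 2 (adjusted p up to 0.113 in edgeR), and that on Herpud1 without replicate 3 (0.5 in edgeR). Eif2s1, which encodes eIF2alpha, rose from 35.3 to 162 CPM, and its call held without any 1 replicate. Slc7a3, an arginine and lysine transporter, had 4 counts and 28, and Cth 1 and 21, both lost without replicate 2 and the former also without replicate 3 (adjusted p up to 0.0874 and 0.0586 in edgeR). From Day01 to Day05, where 11.3% of all genes were higher and 6.14% lower, 2 of 75 were higher, Slc7a3 (2 counts and 28) and Ggct (2 and 18), and 5 lower, led by Slc38a1 (16 and 5 counts), Shmt2 (145 to 37.0 CPM), Hmox1 (504 to 147 CPM) and Mthfd2 (168 to 54.1 CPM). Hmox1 and Slc7a3 kept that call without any 1 replicate, while those on Slc38a1 and Ggct were lost without any 1 of the 3 (adjusted p up to 0.568 and 0.191), that on Mthfd2 without replicate 1 or 2 (up to 0.175) and that on Shmt2 without replicate 3 (0.0738), in edgeR.

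Against Day06 the listed genes are likewise a description. In nt, 27 of the 75 genes had a log2 fold change above 0 and 48 below, with a median of -0.285 (-0.01 for all genes tested). Iars, a tRNA synthetase, had 21.5 CPM in nt (SD 10.2) and 127 on Day06 (SD 44.4). Shmt2 (59.7 against 178 CPM) and Mtr (3 counts against 21) were lower too. Ggct was higher, at 71.5 CPM (SD 20) against 9.09 (SD 15.7). So were Eif2s1, at 172 CPM (SD 48.9) against 55.2 (SD 26.1), and Hsp90b1, at 997 CPM (SD 115) against 705 (SD 87). In Mock, 31 of the 75 genes had a log2 fold change above 0 and 44 below, with a median of -0.252 (-0.145 for all genes tested). Hsp90b1 was higher, at 976 CPM (SD 106). Lower were Mtr (1 count against 21), Slc38a1 (1 against 15) and Nfe2l2, the gene of NRF2 (35.3 against 140.0 CPM). Mock against nt called 0 of 75 genes in edgeR, with 5 at an unadjusted p under 0.05, where 1.56% of all genes were called. Of 2475 pairs of a listed gene and an siRNA, 8 passed against nt. All 8 were among the 957 pairs of listed genes above the filter, of which they are 0.836%, where 2.57% of all pairs were called. Of the 8, 4 were in siWdr5, which is 13.8% of the 29 listed genes above the filter, where 27.2% of all genes were called against nt in siWdr5. There Hspa5 (0.90, SE 0.20, adjusted p = 0.000143 in edgeR) and Calr (1.23, SE 0.27, adjusted p = 0.000176 in edgeR) were higher, and Cth (-1.98) and Nupr1 (-2.30) lower. The other 4 pairs were in 3 siRNAs. Hsp90b1, also a chaperone, was lower in siNcor1 (-0.89, SE 0.21, adjusted p = 0.00244 in edgeR) and in siPou5f1 (-0.83, SE 0.21, adjusted p = 0.00527 in edgeR). Cth was higher in siPou5f1 (1.46, SE 0.43, adjusted p = 0.019 in edgeR), and Mthfd2 was lower in siCdk1 (-2.04, SE 0.62, adjusted p = 0.0471 in edgeR). Of all genes, 4.45% were called in siNcor1, 5.77% in siPou5f1 and 2.59% in siCdk1.

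The genes whose pattern was most like that of Slc7a11 over the 42 condition means of log2 CPM were Lgals3 (Pearson's r = 0.65), Mt2 (0.62), Gm8451 (0.62), Prl2c3 (0.62) and Adh7 (0.60). No p is given, since conditions share pools, depth and the Day00 libraries. Lgals3, which encodes galectin-3, had 64.9 CPM on Day00 (SD 32.9) and 380 on Day01 (SD 114), and stayed between 278 and 574 CPM on the later days. Mt2, a metallothionein, went from 51.8 CPM on Day00 to 164 on Day01 and 973 on Day06, with its highest mean of the days at the end. Among the members, r with Slc7a11 was 0.18 for Asns, 0.13 for Slc3a2, -0.11 for Psat1 and -0.15 for Atf4. The likeness changed without Day00: over the other 41 conditions, a set chosen after the data were seen, 0 of these 5 genes stayed among the nearest 5, which were led by Pcm1 (0.66) and Sbds (0.60).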

How the data were processed

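Per the labels and methods, CEL-Seq2 libraries of pooled barcoded RNA were mapped by the authors with Bowtie2 to mm10, corrected for UMIs and assigned to GENCODE vM13. The deposited counts per gene were taken as given. The deposited log2 values are the authors' normalized CPM on a log2 scale with the batch regressed out, centred near 0 per gene, and served only as an alternative. Of 129 libraries, 127 are in both tables. A siMtf1 library (7981 counts) and a Mock library (6403 counts), both of replicate 3, are in the count table alone. The Mock column was matched by correlation (0.915 against 0.0265).

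edgeR 4.0.16 (R 4.3.3) was fitted once to all 127 libraries with TMM scaling, condition and replicate terms. filterByExpr kept 3013 genes. Listed genes under the filter came from a second fit and were adjusted together with the rest. The quasi-likelihood test was adjusted by Benjamini-Hochberg within a comparison, threshold 0.05. CPM are counts over TMM-scaled totals of the tested genes. SE is the log2 fold change over the root of F, and intervals use 83 residual degrees of freedom. Pearson's r used log2 CPM with a prior count of 2. Counting intervals are exact 95% binomial and, like the limit of 3 counts, cover counting error only. On simulated data, changes of 2-fold and 4-fold were recovered in 38.3% and 93.1% of genes for Day05 against Day01, and in 29.8% and 76.9% for siWdr5 against nt (2435 and 2454 genes). The simulation held no replicate effect, and changed genes that its filter dropped were not counted, so these shares may be too high.

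Genes were named by rule: all 9 members, the 3 called list genes with the largest change in each direction and at least 50 CPM in 1 condition, siRNAs with a called member or the extreme mean, and the 5 genes nearest to Slc7a11. 1 value that the rule covers is not reported here. Members and lists were chosen with earlier results of these data known. Positions are from GENCODE vM21 (GRCm38). Near-identical copies were found with BLAST 2.17.0 (at least 90% over at least 250 of the last 500 bases). All 9 members matched a RefSeq promoter (GRCm38.p6). Alternatives were no replicate block, RLE size factors, DESeq2 1.42.0, limma 3.58.1 on the log2 values, a filter of 10 counts, each replicate left out, all 129 libraries, and other controls.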

Additional observations from a re-analysis of the deposited data

Results flagged for a closer look

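Trib3 in Mock stood apart in 1 of 5 libraries, which come from 3 replicates, with 24.8 CPM from 1 count while the other 4 libraries had 0, so that its gap to the nearest library was the whole range of the group. This gap takes that value in any group of 5 in which 1 library has a count, and Trib3 had a count in 20 of 127 libraries, so nothing is read from it.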

How the results depend on the processing

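Counts of calls against Day06 are left out here too, since the selection used its libraries. Without the replicate block, 0 members passed for Day05 against Day03, 0 for Day05 against Day01 and 0 among the transfected conditions, against 1 each with it. Deviations from the condition means had a median correlation of 0.0981 in libraries sharing a number and -0.0685 otherwise. By pool it was 0.0579, 0.0861 and 0.22. Libraries that share a number also share a pool, so this check cannot tell a pool from a pairing. RLE size factors called 3 members for Day05 against Day03, 2 for Day05 against Day01, 4 among days 1 to 5 and 0 among the transfected conditions. DESeq2 called 3 and 2 in the first pair of these. Its joint tests were not run. The filter of 10 counts and limma on the deposited log2 values each called 0 for Day05 against Day03, 0 for Day05 against Day01 and 0 among the transfected conditions. Mock in place of nt against Day06 gave 2. Leaving out 1 replicate gave 0 to 1 members for Day05 against Day03, 0 to 1 for Day05 against Day01, 0 to 1 among days 1 to 5 and 0 to 1 among the transfected conditions, 0 to 1 pairs against nt, and 6 to 10 listed genes for Day06 against Day00 (13 with all replicates), where limma gave 7, a description only. The mean of the other siRNAs as control gave 2 pairs. Of the 5 genes nearest to Slc7a11, Spearman shared 0, single libraries 3, and the set without Day00, added after the data were seen, 0. The cause of these changes was not tested.

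Of 38 single values of named genes, 0 reversed. The call was lost for 19 with limma, 13 with the filter of 10 counts, 12 without the block, 5 with DESeq2, 3 with RLE and 17, 17 and 19 without replicates 1, 2 and 3. Depth limits the rare members: Trib3 had 20 counts in all.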
